A study of Homo sapiens with 4 samples.

Results

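The alpha-class glutathione S-transferases are GSTA1, GSTA2, GSTA3, GSTA4 and GSTA5, and they were followed here across arrays of MV4-11, a widely used cell line from a human acute myeloid leukaemia whose cells resemble monocytes and bear the KMT2A-AFF1 fusion gene. Within the class, members were taken as every probe set whose listed gene symbols include 1 of these 5 genes, whatever its values. This gave 5 of the 53617 probe sets on the array, for all 5 genes of the 24607 named on it. The class itself was chosen with earlier results of these data known. Counts set beside background shares below are therefore not those of an unselected class. GSTA1, GSTA3, GSTA4 and GSTA5 each had a probe set listed under that symbol alone. This is an annotation, and probe sequences were not checked for matches to the other genes. GSTA2 had none to itself: its only probe set is also assigned to GSTA1 and is called the shared GSTA1/GSTA2 probe set, because signal from either gene can fill it. Of 25713 probe sets with any gene symbol, 23871 carry 1 symbol and 1842 carry several.

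MV4-11 cells were transduced with 1 of 4 short hairpin RNAs, and all 4 cultures, the control included, then spent 24 h in 3 µM doxycycline. The control hairpin was aimed at luciferase. By their genotype labels the other 3 were aimed at RUNX1, a transcription factor needed to make blood stem cells. They are labelled moderate, profound 1 and profound 2 for the depth of knockdown. The description fields of the profound arrays name RUNX2 and RUNX3 instead, and the name RUNX1 hairpin follows the genotype label. Each hairpin has 1 array, hybridised from 100 ng of total RNA, so no difference below has a replicate check and no p-value is given. The question of the series is what different depths of RUNX1 knockdown do to expression, and every direction given here is one between labelled arrays.

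Glutathione S-transferases join the tripeptide glutathione to reactive, electrophilic molecules, which makes them easier to export. The alpha class works as dimers and is best known from liver, kidney, gut and steroid-making tissue, where it also reduces lipid hydroperoxides. GSTA1 and GSTA2 are the main liver forms and are close copies, and GSTA1 conjugates the alkylating drug busulfan. GSTA3 acts as a ketosteroid isomerase in steroid hormone synthesis. GSTA4 prefers 4-hydroxynonenal, a toxic aldehyde from lipid peroxidation. Of GSTA5 little is known at the protein level.

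The genes lie together on chromosome 6, in the RefSeq order GSTA2, GSTA1, GSTA5, GSTA3 and GSTA4, all on the minus strand. The 250 bases before the start of GSTA1 (chr6:52803817-52804066) and of GSTA2 (chr6:52763476-52763725, RefSeq, GRCh38.p14) are printed here because the probe sets of this pair gave the largest contrast in the family. Capitals mark the bases at which they differ.

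GSTA1: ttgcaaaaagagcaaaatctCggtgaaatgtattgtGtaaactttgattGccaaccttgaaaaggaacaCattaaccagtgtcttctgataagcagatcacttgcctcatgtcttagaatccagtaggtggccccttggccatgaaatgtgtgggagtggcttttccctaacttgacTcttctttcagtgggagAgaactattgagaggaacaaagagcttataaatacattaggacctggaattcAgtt
GSTA2: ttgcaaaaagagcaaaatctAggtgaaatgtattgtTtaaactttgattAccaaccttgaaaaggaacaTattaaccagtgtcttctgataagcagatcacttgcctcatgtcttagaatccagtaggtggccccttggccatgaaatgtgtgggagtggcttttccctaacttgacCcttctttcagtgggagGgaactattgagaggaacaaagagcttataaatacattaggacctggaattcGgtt

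The pair differed at 7 of 250 positions, so that 97.2% of bases were the same in an ungapped comparison. Counted from 1 at the 5′ end of the window, with the GSTA1 base first, the differences are C21A, G37T, G50A, C70T, T178C, A195G and A247G. Every other pairing of the 5 windows shared between 18.8% and 28.4% of positions without gaps. The windows were searched on both strands for the RUNX core as TGTGGT or TGCGGT, for the core of the antioxidant response element as TGACNNNGC, and for the TATA box as TATAAA. No match overlapped another. In GSTA1 and GSTA2 the only match was a TATA box at 30 to 25 bases before the start, a word that 10.7% of 35116 promoter windows hold. GSTA3 (chr6:52909699-52909948) held none of the 4 words.

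The windows of GSTA4 (chr6:52995285-52995534) and GSTA5 (chr6:52840814-52841063) are shown for their matches, in capitals.

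GSTA4: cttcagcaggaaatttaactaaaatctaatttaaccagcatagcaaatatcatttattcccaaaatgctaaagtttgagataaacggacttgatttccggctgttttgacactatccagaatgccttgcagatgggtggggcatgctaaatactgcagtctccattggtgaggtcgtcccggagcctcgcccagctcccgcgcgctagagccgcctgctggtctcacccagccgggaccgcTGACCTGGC
GSTA5: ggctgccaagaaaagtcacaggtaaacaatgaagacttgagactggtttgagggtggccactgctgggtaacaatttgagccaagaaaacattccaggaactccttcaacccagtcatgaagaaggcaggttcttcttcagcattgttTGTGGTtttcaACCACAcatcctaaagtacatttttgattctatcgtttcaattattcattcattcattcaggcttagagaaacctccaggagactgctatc

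GSTA4 held an antioxidant response element core at 9 to 1 bases before the start, a word found in 10.9% of promoter windows. GSTA5 held the RUNX core TGTGGT on its own strand at 102 to 97 bases before the start and again on the opposite strand at 91 to 86, where 11.0% of windows hold this word at least once. TGCGGT was in none of the 5 windows and is in 5.84% of all windows. A match describes the letters of a window and is not a measured site.

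The shared GSTA1/GSTA2 probe set read 1.76 log2 units under the control hairpin and 2.55 under the moderate one, against 1.58 in profound 1 and 1.35 in profound 2. The moderate array stood above the other 3, and both profound arrays lay below control. Against control the differences were 0.79 (1.73-fold higher) in the moderate array, -0.18 in profound 1 and -0.41 in profound 2. As a yardstick for each difference, a robust SD of the same difference, from its scaled median absolute deviation, was taken over the 2000 probe sets nearest in mean level. It holds noise and real differences together. It was 0.21 for the moderate array against control, so that the difference was 3.83 times the yardstick, against 0.82 and 1.96 times in profound 1 and profound 2.

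The same probe set was lower in the profound arrays than in the moderate array by 0.97 and 1.20 log2 units, which are 1.96-fold and 2.30-fold. These were 4.40 and 5.82 times the robust SD of their pairs. They do not use the control array, but they share the single moderate array with the moderate difference from control. These comparisons are therefore not separate observations. The 2.30-fold difference was the only one of at least 2-fold among all pairs of arrays over the 5 probe sets (background for that pair and direction 0.191%). Of all probe sets with a gene symbol, 0.502% were at least 1.5-fold lower in both profound arrays than in the moderate array. Both shares are for a direction picked after the values were seen, so they understate how often some such contrast occurs. Between the highest and lowest of the 4 arrays, 1.47% of these probe sets were at least 2-fold apart. Between both profound arrays the shared probe set differed by 0.23, close to the yardstick of 0.21. All 4 of its values lay below the median of all values in the table (3.08), where background makes up much of an RMA signal, and no detection call was used here. GSTA3 also stayed below it in every array, so that 3 of the 5 probe sets, those of GSTA1, GSTA4 and GSTA5, exceeded it in at least 1 array.

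**Figure D1:**
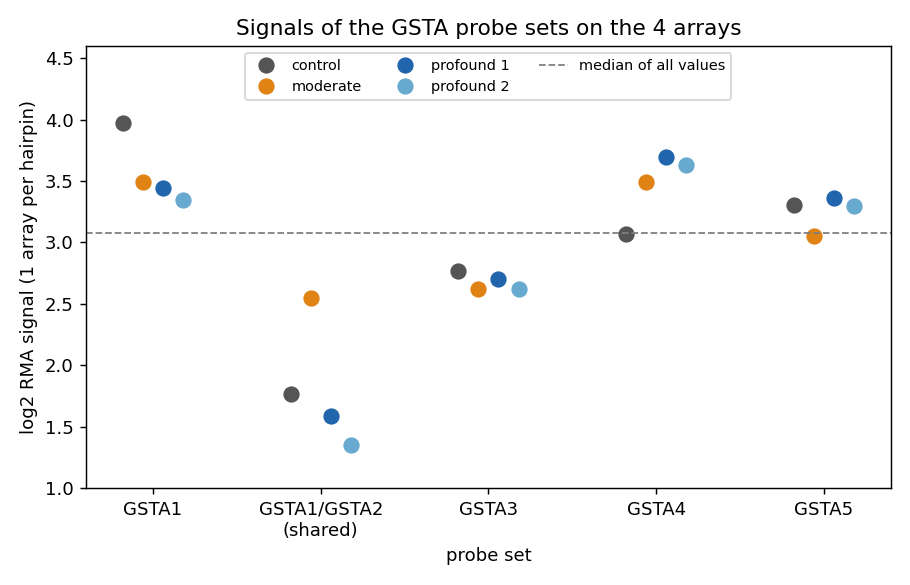
Log2 RMA signal (vertical axis) of the 5 GSTA probe sets (horizontal axis) on the 4 arrays, 1 point per array, with the median of all values in the table as a dashed line at 3.08. The shared GSTA1/GSTA2 probe set is highest in the moderate array (2.55), GSTA1 is highest and GSTA4 lowest in the control array, and GSTA3 lies within 0.15 log2 units.

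The separate GSTA1 probe set read 3.97 in control, 3.49 in the moderate array, 3.44 in profound 1 and 3.34 in profound 2. Here the control array stood above all 3 arrays of RUNX1 hairpins, which lay close together. Relative to control these arrays were at -0.48, -0.53 and -0.63 log2 units, or 1.40-, 1.45- and 1.55-fold lower, at 2.14, 1.98 and 2.54 times the robust SD. The 3 comparisons share the control array, so they are not separate observations. Set against the median of the other 3 arrays, GSTA1 was at 0.053 in moderate, -0.053 in profound 1 and -0.15 in profound 2, so the differences rest on the control array. Among all probe sets with a gene symbol, 22.2% had control above all 3 other arrays by any amount. Against the moderate array the profound arrays differed by only -0.05 and -0.15, within robust SDs of 0.26 for both.

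Both probe sets that can register GSTA1 thus parted in the moderate array, where the GSTA1 probe set was below control by 0.48 and the shared one above it by 0.79. The difference of the shared probe set exceeded that of the GSTA1 probe set by 1.27 log2 units in the moderate array, by 0.36 in profound 1 and by 0.22 in profound 2. Which of the genes carries the shared signal cannot be told apart from these values. GSTA7P, a neighbouring pseudogene and the only 1 of 7 alpha-class pseudogenes in RefSeq with a probe set here, read 1.91 in control, 1.81 in moderate, 2.17 in profound 1 and 2.07 in profound 2. Its moderate array was the lowest of the 4, with all values within 0.35 of each other.

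GSTA4 ran the other way from GSTA1. It read 3.07 in control, 3.49 in the moderate array, 3.69 in profound 1 and 3.63 in profound 2. Control lay below all 3 arrays of RUNX1 hairpins, followed by moderate and then both profound arrays. Relative to control these arrays were at 0.42, 0.63 and 0.56 log2 units, or 1.34-, 1.55- and 1.48-fold higher, at 1.87, 2.28 and 2.24 times the robust SD. Only the step from control to moderate was larger than the robust SD (0.23). The profound arrays exceeded the moderate array by 0.21 and 0.14 against robust SDs of 0.26 for both, so that a grading between moderate and profound was not resolved. Set against the median of the other 3 arrays in place of control, GSTA4 was at -0.14 in moderate, 0.21 in profound 1 and 0.14 in profound 2, so the direction in moderate rests on the control array. Among all probe sets with a gene symbol, 24.8% had control as the lowest of the 4 arrays.

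GSTA3 read 2.77 in control, 2.62 in moderate, 2.71 in profound 1 and 2.62 in profound 2. No step between its ordered values exceeded the robust SD, and its whole range was 0.15 log2 units (1.11-fold). GSTA5 read 3.31 in control, 3.05 in moderate, 3.37 in profound 1 and 3.30 in profound 2. The moderate array was the lowest, at -0.25 from control or 1.08 times the robust SD, and at 0.31 below profound 1 or 1.19 times. Its other 3 arrays lay within 0.07 log2 units of each other.

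**Figure D2:**
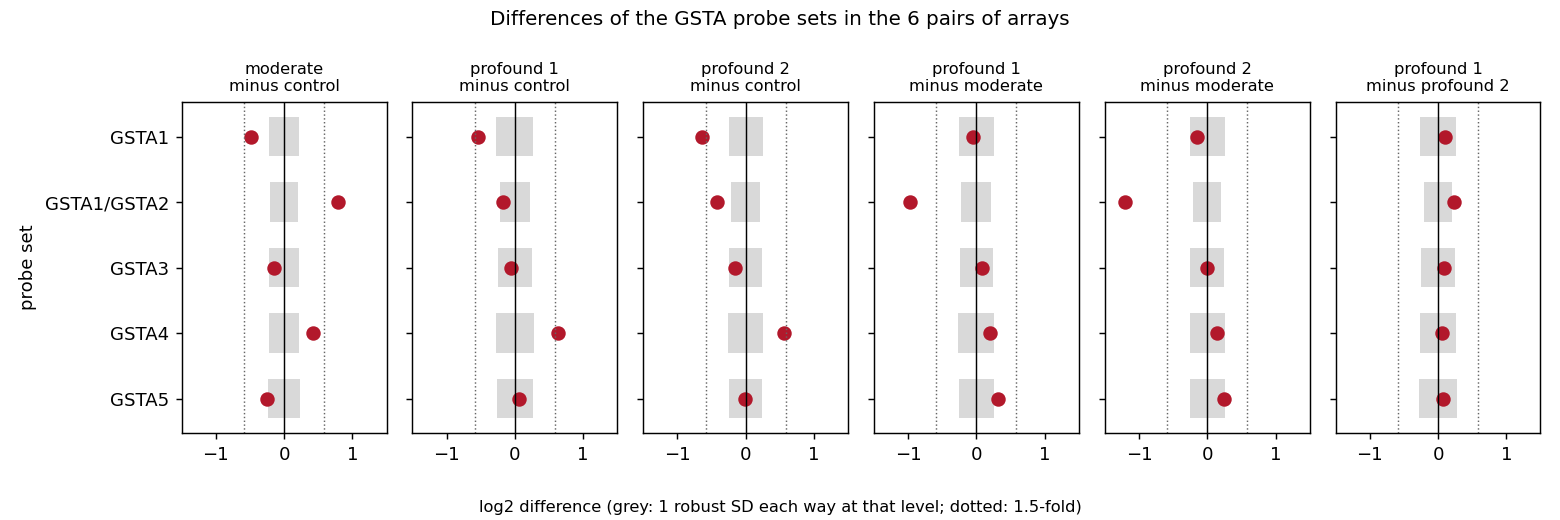
Log2 difference (horizontal axis) of each GSTA probe set (vertical axis) in the 6 pairs of arrays, with grey bars of 1 robust SD each way at the level of that probe set and dotted lines at 1.5-fold. The shared probe set is at 0.79 for moderate minus control and at -0.97 and -1.20 for the profound arrays minus moderate, while GSTA3 lies inside the grey bar in every pair.

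At a size of 1.5-fold, 1 of the 5 probe sets differed in each comparison with control. It was the shared probe set on the higher side in the moderate array, where 1.16% of all probe sets with a gene symbol were higher and 0.945% lower. It was GSTA4 on the higher side in profound 1 (background 2.53% higher, 3.01% lower) and GSTA1 on the lower side in profound 2 (1.59% higher, 1.34% lower). GSTA4 in profound 2 (0.56) and GSTA1 in profound 1 (-0.53) fell just short of that size. Against the moderate array 1 probe set, the shared one, was lower in profound 1 (background 2.73%) and in profound 2 (background 1.73%), and 0 were higher (background 1.83% and 1.57%). Between both profound arrays 0 of 5 differed (background 4.78% either way). The median difference of the 5 from control was -0.14 in moderate, -0.06 in profound 1 and -0.15 in profound 2, beside medians of 0.00, 0.01 and 0.01 over all probe sets with a gene symbol. The class thus showed no shared direction: its members split between higher and lower in each comparison with control.

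Of the MV4-11 identity markers 9 of 11 were measured. LYZ read between 11.34 and 11.57 and FLT3 between 9.28 and 9.46. SPI1, CEBPA, PTPRC, CSF1R, MEIS1, MPO and ITGAM were all above the table median in every array. Some markers of other cell types, among them NKG7 and STAR, were also above it in every array. Such levels do not by themselves establish the identity of the line. Hepatocyte genes, markers of a cell type rich in alpha-class enzymes, read between 1.90 and 4.18 (9 of 10 measured), with ALB between 2.52 and 2.87. Over 32 measured markers of hepatocytes, steroidogenic, epithelial, erythroid, T and NK, and B cells, the highest and lowest array lay a median of 0.29 log2 units apart and at most 0.69 (CD79A), and 3 markers reached 1.5-fold but 0 reached 2-fold. Of the GSTA probe sets, 3 of 5 reached 1.5-fold between their highest and lowest array (GSTA1 0.63, GSTA4 0.63, shared 1.20), beside 13% of all probe sets with a symbol and 11% of those with a mean at or below the table median. The shared probe set was the 1 that reached 2-fold, beside 1.47% and 1.07%. The ranges of GSTA1 and GSTA4 were therefore no larger than the widest among these markers, and that of the shared probe set was. The class was chosen with earlier results of these data known, so the shares describe the background and do not test the class.

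**Figure D3:**
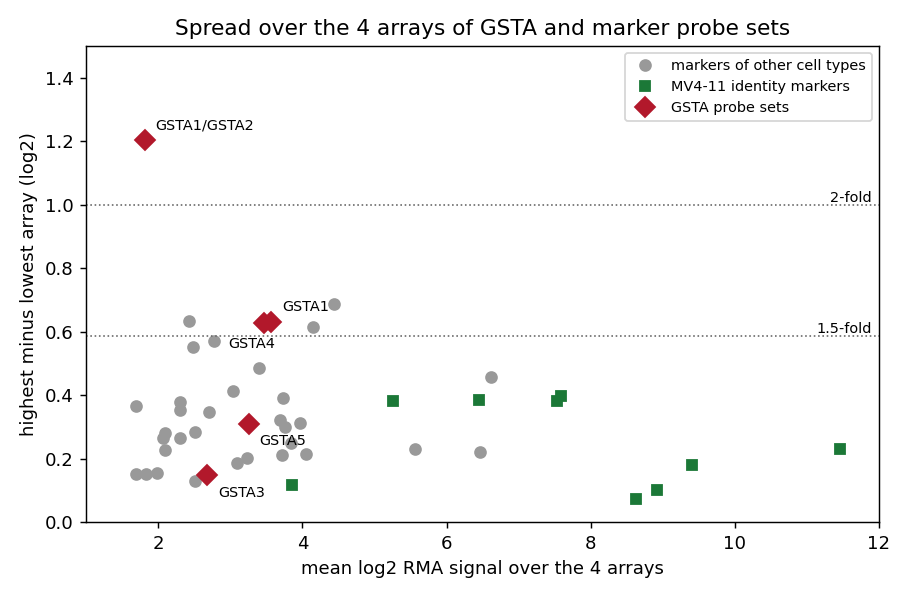
Distance between the highest and the lowest of the 4 arrays (vertical axis, log2) against the mean log2 RMA signal (horizontal axis) for the 5 GSTA probe sets (diamonds), 32 markers of other cell types (circles) and 9 MV4-11 identity markers (squares). The shared GSTA1/GSTA2 probe set lies at 1.20, above every marker, of which the widest, CD79A, is at 0.69, while GSTA1 and GSTA4 lie at 0.63 among the widest markers.

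Some marker lists also had their highest summed signal in the moderate array, the MV4-11 identity list among them. On the linear scale its summed signal was 4677.6 in control, 5163.7 in moderate, 4916.1 in profound 1 and 4860.1 in profound 2. LYZ, its highest member, read 11.34, 11.57, 11.46 and 11.49 log2 units in that order. A linear sum follows its brightest members, and this one is mostly that of LYZ. PTPRC, MEIS1 and CSF1R were also highest in the moderate array, but SPI1, FLT3, MPO, ITGAM and CEBPA were not. The summed signal of the hepatocyte list on the linear scale was 76.2 in control, 85.1 in moderate, 78.0 in profound 1 and 82.6 in profound 2. Of the 9 measured hepatocyte genes, 5 were never above the table median. The sum of the epithelial list was 41.9, 50.7, 40.9 and 45.8 in the same order, that of the erythroid list 79.9, 88.5, 82.7 and 84.7, and that of the T and NK list 110.2, 136.8, 104.1 and 120.5. The last sum is mostly that of NKG7, which read 6.52, 6.87, 6.41 and 6.66 log2 units, while CD2 was at 3.09 in control and 3.07 in moderate. In the erythroid list the highest member, EPOR, read 5.52, 5.72, 5.49 and 5.51 in the same order. HBB was its only measured member lower in moderate (1.55) than in control (1.89). In the epithelial list KRT8, the highest, read 3.91, 4.46, 3.84 and 4.35. KRT18 was its only measured member lower in moderate (3.15) than in control (3.25). The sums of the steroidogenic list (119.0, 115.1, 114.9 and 128.1) and the B cell list (37.7, 42.7, 48.4 and 38.3) were not highest in the moderate array. The part of these lists in the shared probe set's value was not tested. In such bulk RNA, fewer cells that use a gene and less RNA per cell cannot be told apart.

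The targeted gene was read by a probe set that RUNX1 shares with LOC100506403, at 4.27 in control, 4.33 in moderate, 4.07 in profound 1 and 4.04 in profound 2. No array differed from control by more than 0.22, where the robust SD of moderate against control at that level was 0.23. The profound arrays were the lowest, but the signal of this shared probe set does not resolve the labelled depths. The description fields of the profound arrays name RUNX2 and RUNX3 in place of RUNX1. RUNX3 read 8.17, 8.28, 7.75 and 7.74 in the same order. Its moderate array was 0.11 above control, within the robust SD of 0.12, and its profound arrays lay at -0.42 and -0.43 from control. The RUNX partner CBFB lay between 9.28 and 9.48 and RUNX2 between 6.16 and 6.33.

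Probe sets of similar pattern were sought among the single-symbol probe sets whose highest and lowest array were at least 1.5-fold apart, by the Euclidean distance between their 4 values after each was centred on its mean. The distances run over 4 arrays only and say nothing about function. The shared probe set had 2 of 3072 candidates within a distance of 0.2, the microRNA gene MIR181B1 (0.13) and the potassium channel gene KCNK17 (0.15), and next came MIR2276 (0.23). MIR181B1 read 6.08 in control, 6.70 in moderate, 5.82 in profound 1 and 5.52 in profound 2. KCNK17 read 4.42, 5.18, 4.40 and 4.11 in that order. Both were chosen for their likeness to this pattern, so that they show it is no further observation of it.

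GSTA1 had 62 candidates within 0.2, the nearest being the olfactory receptor gene OR4D11 (0.02), UG0898H09 (0.05) and MIR4789 (0.05). OR4D11 read 2.38, 1.90, 1.85 and 1.77 in the order control, moderate, profound 1, profound 2, all below the table median. GSTA4 had 89, led by HAPLN2, a hyaluronan and proteoglycan link protein gene (0.03), HCG22 (0.05) and the F-box protein gene FBXO8 (0.07). FBXO8 read 5.79, 6.15, 6.39 and 6.38, well above the table median, whereas HAPLN2 stayed between 2.33 and 2.93. A fixed distance admits more candidates for patterns of smaller range, so these counts do not rank how common the patterns are. GSTA3 and GSTA5 varied less than the candidates were required to, and 0 lay within 0.2. Their nearest were NEGR1 (0.31), PRR27 (0.32) and BEAN1 (0.32) for GSTA3 and FIGNL2 (0.21), SYN2 (0.21) and HAVCR2 (0.22) for GSTA5.

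Of the 5 nearest protein-coding genes on each side in RefSeq order, 6 of 10 were measured. TMEM14A, the nearest before GSTA2, read 4.27 in control, 4.36 in moderate, 4.46 in profound 1 and 4.38 in profound 2. CILK1, a ciliogenesis-associated kinase gene and the nearest after GSTA4, read 6.69, 6.68, 6.53 and 7.28, with profound 2 higher than control by 0.59. MCM3, a subunit of the replicative helicase, was at 9.44, 9.27, 8.52 and 9.16, with profound 1 lower by 0.92. TRAM2 (7.08 to 7.34), PAQR8 (3.58 to 3.92) and the placental transcription factor gene GCM1 (2.28 to 2.61) had narrower ranges. In the moderate array 0 of 6 neighbours were 1.5-fold from control, and in each profound array 1 was. The shares of all probe sets with a gene symbol called either way were 2.1% in moderate, 5.54% in profound 1 and 2.93% in profound 2. Counts over 6 genes are too small to be told from these shares. TMEM14A had the same order of arrays as GSTA4, over a range of 0.18, and GCM1 was also lowest in control.

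**Figure D4:**
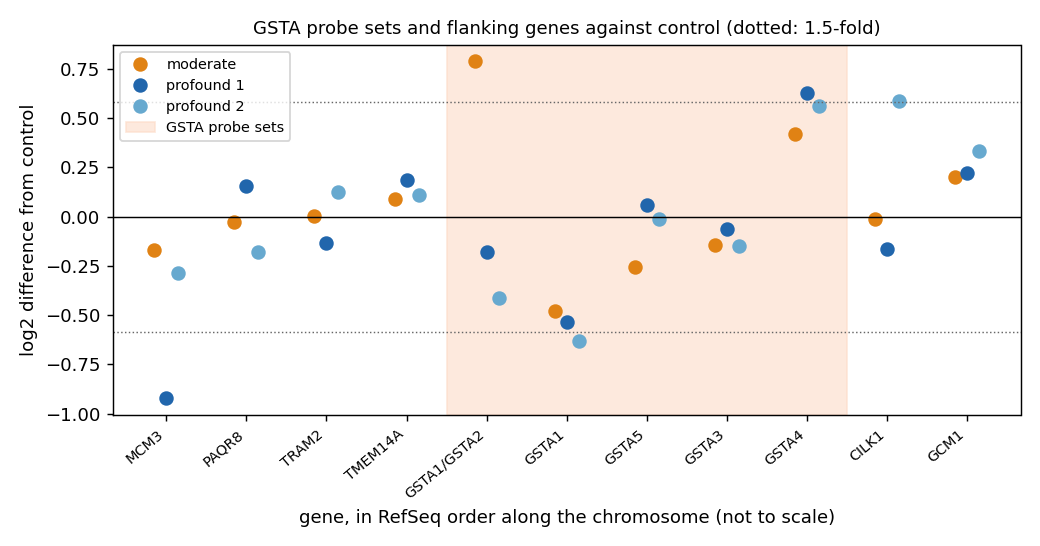
Log2 difference from control (vertical axis) of the GSTA probe sets (shaded) and the 6 measured flanking genes in RefSeq order (horizontal axis, not to scale), 1 point per RUNX1 hairpin array, with dotted lines at 1.5-fold. The shared probe set in moderate (0.79), GSTA1 and GSTA4 stand away from 0, as do MCM3 in profound 1 (-0.92) and CILK1 in profound 2 (0.59).

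The alpha class was then set beside the other glutathione genes and lists of aldehyde clearance, steroid synthesis, NRF2 and transcription factor genes. Each gene was read by its single-symbol probe set of highest mean, and genes had to be above the table median in at least 1 array. Of the genes named below, GPX6 passed only through the moderate array and FOXA1 only through control. ABCC3 and CYP17A1 passed only through profound 2. In their other arrays these genes lay below that median, so differences that use the passing array are partly selected by the filter. Over 10 lists, 90 of 142 genes passed this filter and 114 were measured. At 1.5-fold 1 gene was higher and 0 lower in the moderate array, where the background of 14858 genes was 1.20% higher and 0.855% lower. In profound 1, 7 were higher and 3 lower (background 3.14% and 4.11%), and in profound 2, 0 were higher and 3 lower (1.68% and 1.56%). The median difference from control over the 90 genes was 0.02, 0.04 and -0.04 in the 3 arrays, beside medians of 0.01, 0.00 and 0.00 over all genes passing.

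Among the other cytosolic and mitochondrial transferases, 7 of 14 passed the filter and the mu-class gene GSTM2 was the only member at 1.5-fold from control, at -0.64 in profound 2. GSTM2 read 4.32 in control, 3.81 in moderate, 4.17 in profound 1 and 3.68 in profound 2, so moderate and profound 2 were the low arrays and profound 1 lay at -0.15 from control. GSTM4, another mu-class gene, was at 0.39, 0.38 and -0.31 from control, and so at -0.70 in profound 2 against moderate. GSTZ1, the zeta-class enzyme of tyrosine breakdown, was at 0.24, 0.23 and 0.07 from control. GSTP1, the pi-class enzyme, read 8.79, 8.76, 8.82 and 8.78 and so moved by at most 0.03 from control. GSTO1 was at -0.21, -0.11 and 0.25, and the peroxisomal and mitochondrial GSTK1 at 0.12, 0.17 and 0.05. Of the membrane-bound class 5 of 6 passed and 0 were 1.5-fold from control. The shares of all genes passing the filter that were called either way were 2.06% in moderate, 7.25% in profound 1 and 3.24% in profound 2. The few calls in both of these lists are near those shares. ALOX5AP was lower in the profound arrays than in moderate by 0.62 and 0.79. The median of the membrane-bound class against control was 0.02, -0.20 and -0.11, with ALOX5AP, the 5-lipoxygenase activating protein, at 0.29, -0.33 and -0.50, PTGES, a prostaglandin E synthase, at -0.39, -0.20 and -0.26, MGST2 at 0.02, -0.05 and -0.11, and MGST3 at -0.13, -0.23 and 0.01.

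Of the genes of glutathione supply, 17 of 20 passed, with 0 at 1.5-fold from control in moderate, 6 in profound 1 and 1 in profound 2. The shares of all genes passing the filter that were called either way were 2.06%, 7.25% and 3.24% in these arrays. GCLC, the catalytic subunit of glutamate-cysteine ligase, which lies on the same chromosome arm as the GSTA genes, was at 0.07, 0.31 and 0.13, and its partner GCLM at -0.07, 0.19 and -0.07. SLC7A11, the cystine importer, read 6.09 in control, 6.44 in moderate, 6.82 in profound 1 and 5.48 in profound 2, and so lay on opposite sides of control in both profound arrays. OPLAH, 5-oxoprolinase, was at 0.38, 0.63 and 0.08, and GSR, glutathione reductase, at 0.19, 0.61 and 0.37. Lower in profound 1 were the glutamine carrier SLC1A5 (-0.99), the aminopeptidase ANPEP (-0.79) and the glutathione-degrading enzyme CHAC2 (-0.60). In the steps after conjugation 7 of 11 passed: ACY3, an aminoacylase, was at 0.42, 1.01 and 0.01, the exporter ABCC5 at 0.01, -0.38 and -0.60 (the last below 1.5-fold under cyclic loess), ABCC3 at -0.07, 0.03 and 0.44, ABCC2 at 0.12, 0.10 and 0.06, and NAT8B at 0.16, 0.25 and 0.19.

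Peroxidases and glutaredoxins had 9 of 13 members past the filter and 0 at 1.5-fold from control. This is near the background shares either way of 2.06% in moderate, 7.25% in profound 1 and 3.24% in profound 2. GPX6 was at 0.53, 0.14 and 0.24, GPX7 at 0.25, 0.08 and -0.19, GPX1 at 0.01, 0.21 and 0.21, GLRX at 0.25, 0.41 and -0.07, and GLRX2 at -0.24, -0.32 and -0.11. The signal of GPX6 was above the table median only in the moderate array, the one with its largest difference from control. The partner enzymes of GSTA4 in aldehyde clearance also had 0 of 7 at 1.5-fold from control, which is near the background shares either way, with ALDH3A2 at -0.13, 0.25 and -0.04, CBR1 at -0.04, -0.29 and -0.05, ALDH2 at -0.11, 0.06 and -0.19, ALDH3A1 at 0.01, 0.05 and 0.25, PTGR1 at 0.03, 0.03 and -0.23, and AKR7A2 at -0.05, -0.08 and 0.03. Steroid synthesis genes, which work beside GSTA3, had 7 of 13 past the filter, and CYP11B1 was 1.5-fold higher in moderate (0.64) and profound 1 (0.59), with 0.26 in profound 2. The profound 1 difference is close to 1.5-fold and fell below it under cyclic loess. FDX1 was at -0.28, -0.24 and -0.19, and the other named members, NR5A1 (-0.19, 0.02, -0.15), CYP21A2 (-0.08, -0.26, 0.07), CYP17A1 (-0.14, 0.17, 0.43) and POR (0.09, 0.15, 0.25), stayed below 1.5-fold.

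NRF2 is the factor best known for binding antioxidant response elements, and 18 of 23 genes of its pathway passed. HMOX1, heme oxygenase, was at 0.24, 1.30 and -0.09 and ME1, the NADPH-making malic enzyme, at 0.35, 1.23 and 0.57, while 0 members were 1.5-fold from control in the moderate or the profound 2 array. The shares of all genes passing the filter that were called either way were 2.06% in moderate, 7.25% in profound 1 and 3.24% in profound 2. Counts of 0 in lists of this size are near these shares. OSGIN1 was at 0.31, 0.53 and 0.38, NQO1 at 0.12, 0.20 and -0.32 and NFE2L2, which encodes NRF2, at 0.00, 0.19 and -0.05. The list of transcription factors tied to GSTA promoters in other tissues also holds RUNX2, RUNX3 and CBFB. Of its 20 genes 13 passed and 0 were 1.5-fold from control: FOXA1 was at -0.28, -0.54 and -0.17, ARNT at 0.16, 0.42 and -0.14, JUN at 0.24, -0.13 and -0.38, CDX2 at 0.03, -0.22 and 0.29, and NR3C1, the glucocorticoid receptor gene, at -0.19, -0.02 and -0.11. JUN was lower in profound 2 than in moderate by 0.62.

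**Figure D5:**
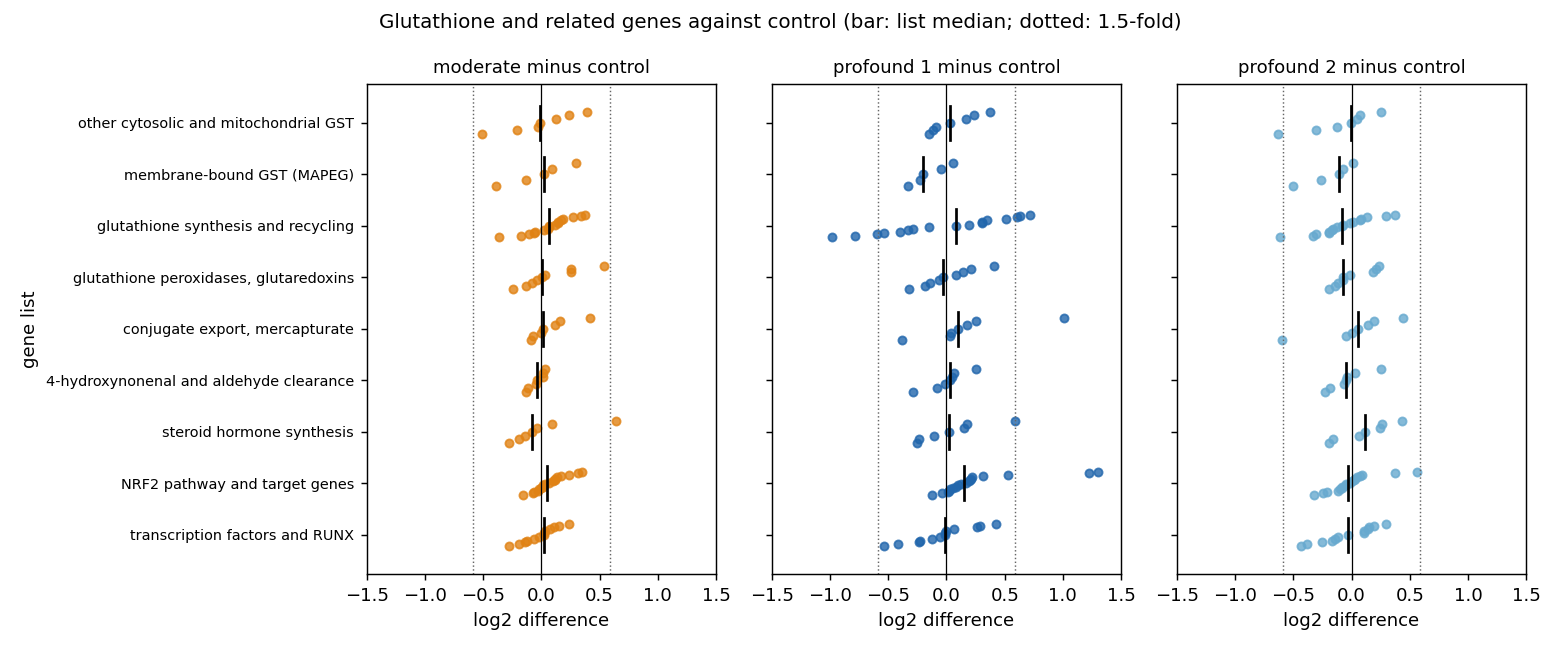
Log2 difference from control (horizontal axis) of the genes of 9 lists with members past the level filter (vertical axis), 1 point per gene, in the arrays labelled moderate, profound 1 and profound 2, with black bars at the list medians and dotted lines at 1.5-fold. In the moderate array the only point beyond 1.5-fold is CYP11B1 at 0.64, and in profound 1 the furthest points are HMOX1 (1.30), ME1 (1.23) and ACY3 (1.01).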

How the data were processed

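The deposited values are log2 signals per probe set. The submitters' processing notes name RMA, Transcriptome Analysis Console 1.0 and Affymetrix Expression Console 1.3.1. RMA subtracts background, gives all arrays the same distribution and combines the probes of a set. Software settings and the genome build were not given in the sources used here. A change in total RNA per cell cannot be seen in such values, and differences of dim probe sets are understated. Array medians lay between 3.07 and 3.09.

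Groups follow the genotype field, and every value column was used. Gene names are those of the platform annotation. Differences were taken between arrays with no test, called at 1.5-fold, and set beside a robust SD over 2000 probe sets of like level and the share of all probe sets called. Named genes are the GSTA probe sets, their 3 nearest patterns each, RUNX genes, CBFB, GCLC, GCLM, SLC7A11, the flanking genes, markers, and per list the members at 1.5-fold and up to 3 with the largest differences per array. The members and lists were chosen with earlier results of these data known. Cyclic loess, median centring, a 2-fold rule, filters, probe set choice and another reference were tried (Python 3.11.15, pandas 2.3.3, R 4.3.3, limma 3.58.1). The scripts were tested on simulated data. The number of arrays, 1 per group, limits the precision. Promoter windows come from RefSeq (GRCh38.p14), and all 5 genes matched.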

Additional observations from a re-analysis of the deposited data

Results flagged for a closer look

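The shared GSTA1/GSTA2 probe set lay on opposite sides of control in the array labelled moderate (0.79 log2 units) and in both arrays labelled profound (-0.18, only 0.82 times the robust SD, and -0.41). With 1 array per hairpin this difference between labelled arrays was not tested. The same holds for ABCC5, an organic anion exporter gene (0.012 in moderate, -0.38 and -0.60 in profound 1 and profound 2), whose moderate value is close to 0. It holds too for the aminopeptidase gene ANPEP (0.27, -0.79 and -0.33). The 3 comparisons of each gene share the control array.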

How the results depend on the processing

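No paired analysis was possible because each group has 1 array. Under cyclic loess and under median centring, all 60 recomputed GSTA differences stayed within the robust SD of their reported values, and the largest shift was 0.03 log2 units. With the median of the other 3 arrays as the reference in place of control, 6 of 15 differences moved by more than that SD, those of GSTA1 (0.053 in moderate, -0.053 in profound 1, -0.15 in profound 2) and of GSTA4 (-0.14, 0.21 and 0.14). For both genes these differences rest on the single control array. The count of GSTA probe sets called fell from 1 to 0 at 2-fold in each comparison with control and in profound 1 against moderate. It also fell to 0 in moderate against control and in both profound arrays against moderate where probe sets had to exceed the table median in 1 array or to carry a single symbol, since both rules leave out the shared probe set. Over the pathway lists together, the 2-fold rule left 0 genes in moderate, 3 higher and 0 lower in profound 1, and 0 lower in profound 2. Under cyclic loess CYP11B1 in profound 1 and ABCC5 in profound 2 no longer reached 1.5-fold. Of 270 counts of single lists under the alternatives, 261 stayed within 1.5 times. Of 120 list medians, 118 moved by less than 0.1 log2 units. Without the level filter the medians of the steroid synthesis list in moderate (0.02) and of the peroxidase list in profound 1 (0.08) moved further. Signals near the table median limit what any of these differences can show.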
